A study of Mus musculus with 6 samples.

Results

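The genes described here are 50 genes of mitosis, taken by name from the deposited expression table: cyclins and kinases of G2 and M phase, and genes of the kinetochore, spindle, cytokinesis and condensin. All 50 names were found among the 18341 genes listed, and 49 had the mean of 1 CPM or more that testing required. CPM is the read count of a gene scaled to the depth of its library. The libraries came from monocytes sorted out of subcutaneous tumours of C57BL/6 mice 13 days after tumour cells were injected. In 3 libraries the tumours had grown from cells that overexpress BAFF, a B cell survival factor of the TNF family, and in 3 from control cells. B16.F10, a pigmented mouse melanoma line, is named as the source of every sample. The labels say neither what the control cells carried, nor how BAFF was driven or whether each line was 1 clone, nor whether each library came from its own mouse, so p-values measure only the spread between these samples. The comparison asks what BAFF made by the tumour does to the transcripts of its monocytes.

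Cells that divide switch on these genes together late in the cycle. Cyclins A and B with CDK1 start mitosis, Aurora and Polo kinases build the spindle, kinetochores attach chromosomes to it, and a checkpoint holds back the anaphase-promoting complex (APC/C) until every chromosome is attached. Most circulating monocytes and tissue macrophages are not in division, while melanoma cells in a growing tumour are, and some tumour macrophages also divide.

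Most of the mitosis genes were lower in the libraries of sorted monocytes from BAFF tumours, which also held transcripts of melanoma markers. Among 49 tested members, 36 passed as lower, 0 as higher and 13 in neither direction (limma-trend on log2(CPM + 1) of the deposited values, Benjamini-Hochberg adjusted p under 0.05). Fold changes are on that scale, which understates those of genes at a few CPM. Among all 12824 tested genes 3.5% were called lower and 1.81% higher. The median log2 fold change of the members was -1.15, against 0.23 over all tested genes. With library scales matched by median-of-ratios (RLE) factors, 45 of 49 members passed as lower and 0 as higher, against 9.91% and 7.18% of all tested genes, and the median was -1.33 against 0.01. The groups did not overlap for 38 of the tested members on the deposited scale, with every BAFF library below every control, where 6.6% of tested genes showed the same. After RLE this held for 46 of them, against 17.8%. Cenpa, Pttg1, Smc4 and Spc24 were the 4 tested members that did not pass on either scale.

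**Figure D1:**
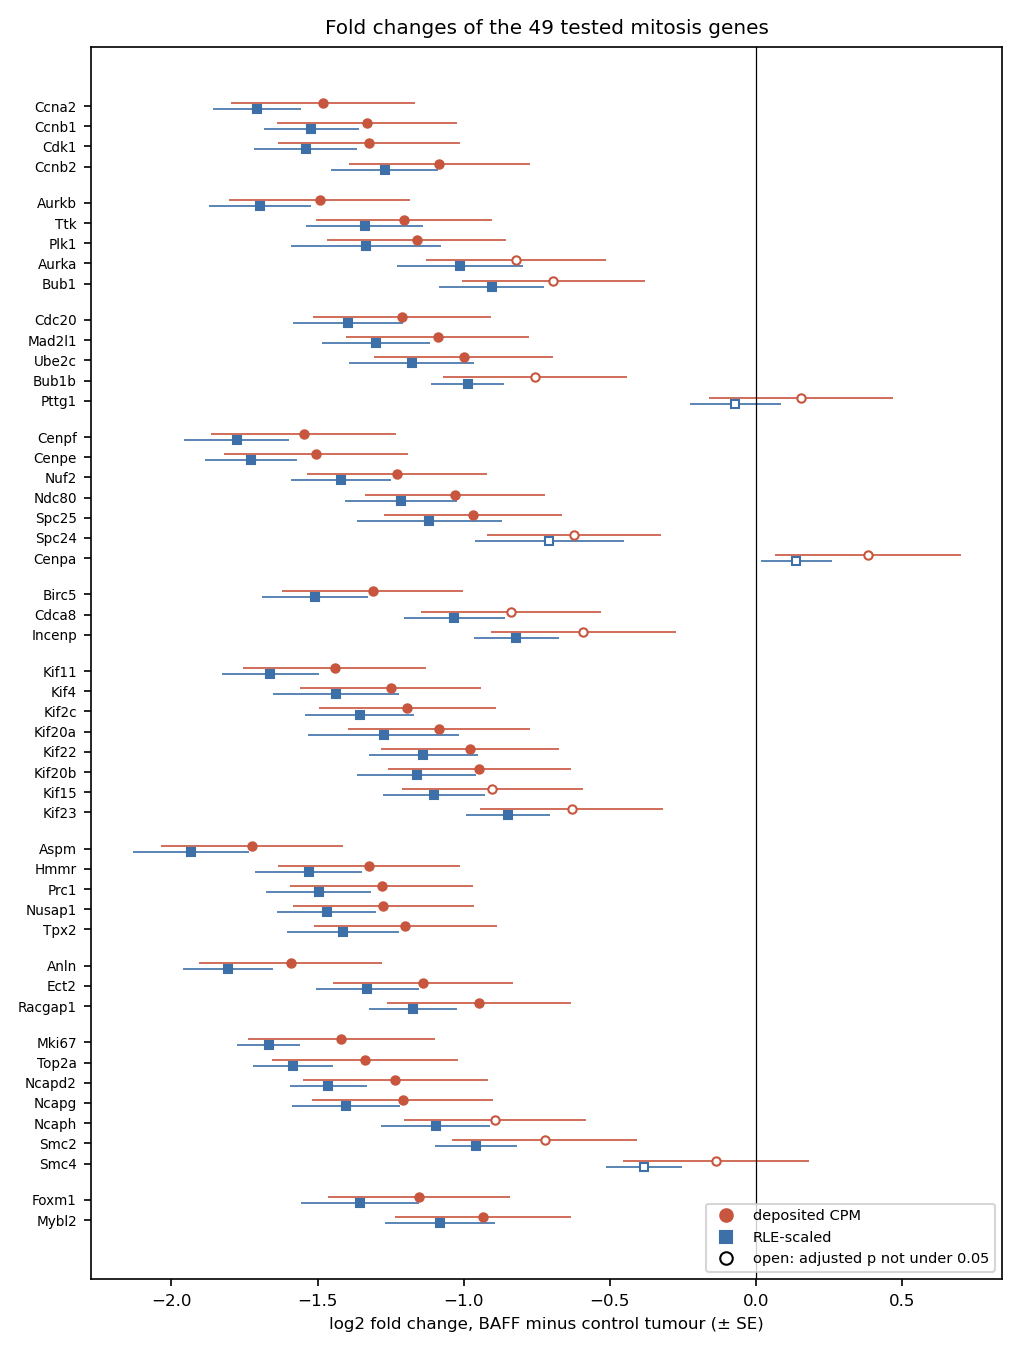
Log2 fold change (x axis, BAFF minus control tumour, ± SE) of each of the 49 tested mitosis genes, grouped by role, on the deposited scale (circles) and after RLE (squares); open symbols did not pass. Of the genes, 36 have filled circles and 45 have filled squares, and Cenpa and Pttg1 lie to the right of the rest.

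The 3 BAFF libraries were alike and the controls were spread. Summed over the 50 genes, the level was 329.9, 317 and 309 CPM in BAFF tumour libraries 1, 2 and 3 and 965, 714 and 446 CPM in control libraries 1, 2 and 3. Control 1 was the highest of the 6 libraries for 47 members, and the controls stood in the order 1, 2, 3 for 48 of the 50. The controls also differed in scale. The listed genes held 65.6%, 50.2% and 39.8% of all CPM in controls 1, 2 and 3 and 61.1% to 66.1% in the BAFF libraries, and CT010467.1, a gene of ribosomal RNA, had 27017 and 43052 CPM in controls 2 and 3 but 299 to 5880 CPM in the other 4 libraries. After RLE the summed level was 309, 278 and 289.6 CPM in the BAFF libraries and 761, 789 and 665 CPM in the controls, and the order 1, 2, 3 was left for 12 members. The reads behind the sum were estimated at 2105 in the shallowest library, control 3, and 26372 in control 1. The deposited scale is the one tested below, with RLE beside it. For the deposited values limma gave genes of like level one spread, so the SE of the members ran only from 0.297 to 0.32, and after RLE from 0.109 to 0.258.

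**Figure D2:**
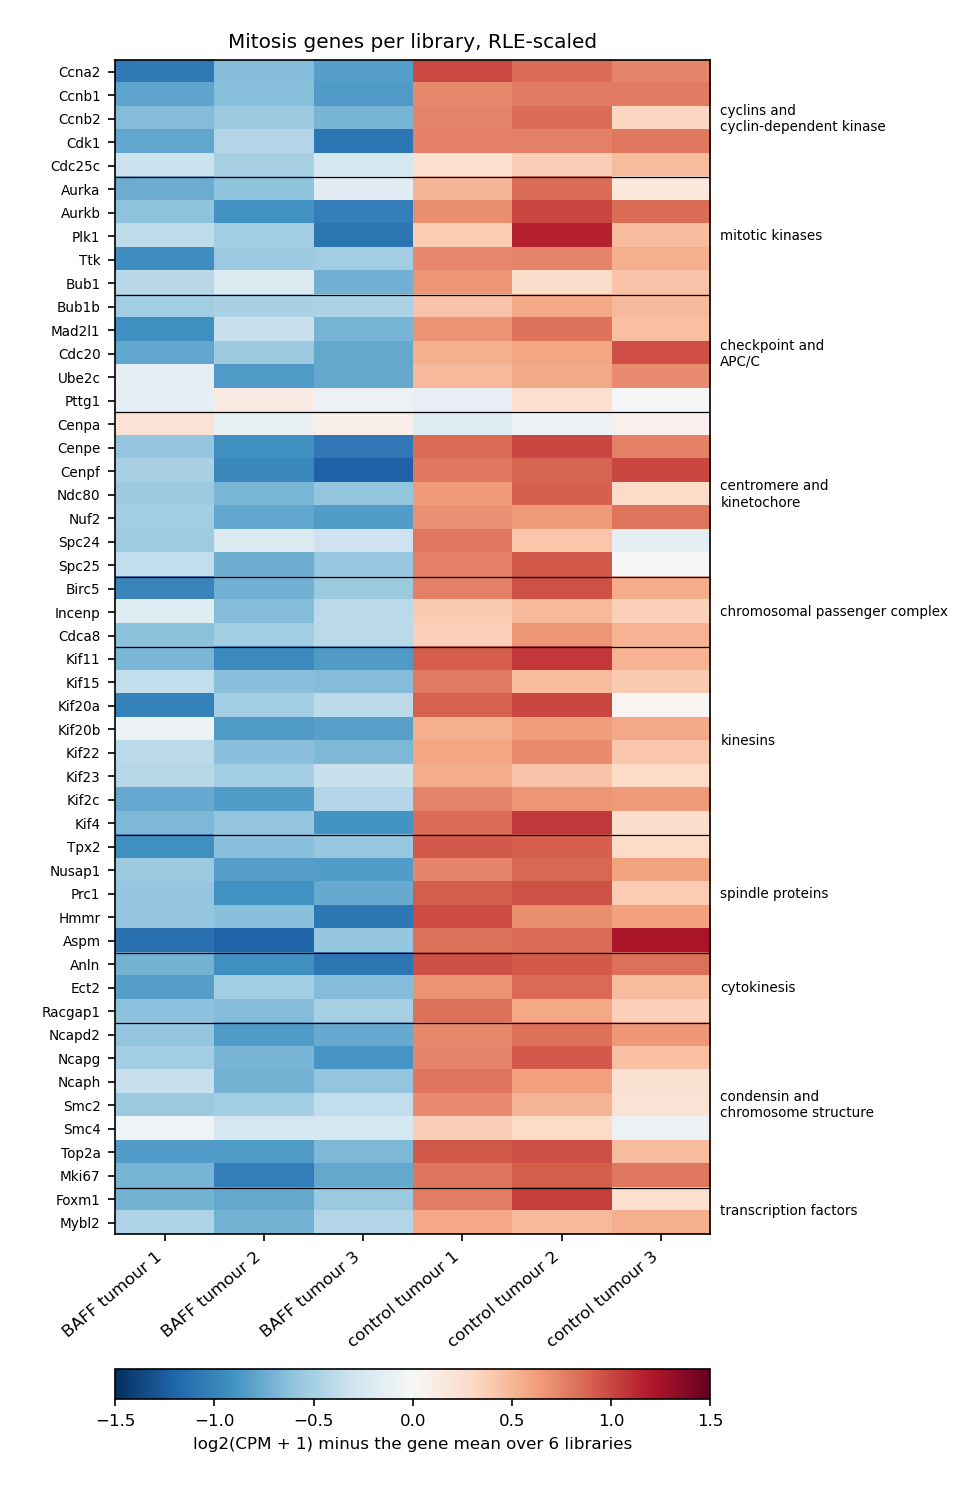
Each row is 1 of the 50 mitosis genes and each column 1 library; colour is log2(CPM + 1) after RLE minus the mean of that gene over the 6 libraries. For 47 of the 50 genes every BAFF column is bluer than every control column, and the exceptions are Cenpa, Pttg1 and Smc4.

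Promoters of the members were searched for sequence elements known from cell cycle genes. TTTGAA is the core of the cell cycle homology region, at which the DREAM complex and MYBL2 with FOXM1 act in turn, and CCAAT boxes bind NF-Y. RefSeq promoter windows of GRCm38.p6, from 250 bases before to 50 after the start, were matched by symbol for 41 members with 43 windows. TTTGAA, searched on both strands, was in 76.7% of the member windows, against 12.4% of 11287 windows of tested genes and 17.9% of all 32851 windows. TTTAAA, a variant of the element, was in 23.3%, against 9.12% and 13.2%. CCAAT, also searched on both strands, was in 72.1%, against 37.7% and 37.4%, and 2 or more copies were in 48.8%, against 14.6% and 11.7%. Within 100 bases before to 50 after the start, TTTGAA was in 72.1% of the member windows and 4.75% of those of tested genes. These are counts of letters and not of bound sites. The members were taken by name as genes of mitosis, so high shares were likely from the start. The part of these elements in the fall was not tested.

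The windows printed are those of Aspm and Anln, the members with the lowest fold changes, of Cdk1, Ccnb1 and Mki67, and of Cenpa and Pttg1, which did not pass. They lie at chr1:139454523-139454822 on the plus strand (Aspm), chr9:22389157-22389456 on the minus strand (Anln), chr10:69352863-69353162 on the minus strand (Cdk1), chr13:100786437-100786736 on the minus strand (Ccnb1), chr7:135716330-135716629 on the minus strand (Mki67), chr5:30666636-30666935 on the plus strand (Cenpa) and chr11:43425932-43426231 on the minus strand (Pttg1). Each is written 5′ to 3′ on the strand of its gene, with any match to the 3 motifs on either strand in capitals.
Aspm: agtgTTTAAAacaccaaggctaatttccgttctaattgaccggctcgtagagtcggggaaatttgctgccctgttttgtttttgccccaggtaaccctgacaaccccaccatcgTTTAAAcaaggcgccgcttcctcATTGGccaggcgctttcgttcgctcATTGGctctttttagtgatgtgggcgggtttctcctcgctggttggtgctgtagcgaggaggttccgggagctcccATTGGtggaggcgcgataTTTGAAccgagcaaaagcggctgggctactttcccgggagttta
Anln: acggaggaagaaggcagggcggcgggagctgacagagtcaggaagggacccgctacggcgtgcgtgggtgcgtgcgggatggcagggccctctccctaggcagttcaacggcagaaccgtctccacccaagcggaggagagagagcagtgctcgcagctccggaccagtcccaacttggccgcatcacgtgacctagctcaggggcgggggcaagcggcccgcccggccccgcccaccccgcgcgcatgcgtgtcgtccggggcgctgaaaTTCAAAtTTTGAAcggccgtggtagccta
Cdk1: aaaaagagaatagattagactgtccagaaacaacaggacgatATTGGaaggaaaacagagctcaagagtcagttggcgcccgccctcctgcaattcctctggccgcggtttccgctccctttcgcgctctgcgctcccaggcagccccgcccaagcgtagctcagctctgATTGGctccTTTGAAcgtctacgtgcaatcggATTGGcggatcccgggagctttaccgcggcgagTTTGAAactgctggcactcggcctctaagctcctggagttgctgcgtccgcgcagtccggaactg
Ccnb1: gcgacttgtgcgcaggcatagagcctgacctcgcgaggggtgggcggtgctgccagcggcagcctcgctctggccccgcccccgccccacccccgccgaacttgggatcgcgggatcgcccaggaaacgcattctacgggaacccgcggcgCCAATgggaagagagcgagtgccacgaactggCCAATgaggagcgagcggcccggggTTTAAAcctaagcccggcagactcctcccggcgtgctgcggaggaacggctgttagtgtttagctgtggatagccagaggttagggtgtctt
Mki67: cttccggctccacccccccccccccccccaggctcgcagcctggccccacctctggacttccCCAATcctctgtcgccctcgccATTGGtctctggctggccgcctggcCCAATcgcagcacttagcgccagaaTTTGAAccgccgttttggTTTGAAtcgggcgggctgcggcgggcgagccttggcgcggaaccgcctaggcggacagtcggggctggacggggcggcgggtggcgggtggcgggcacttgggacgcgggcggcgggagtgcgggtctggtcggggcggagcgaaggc
Cenpa: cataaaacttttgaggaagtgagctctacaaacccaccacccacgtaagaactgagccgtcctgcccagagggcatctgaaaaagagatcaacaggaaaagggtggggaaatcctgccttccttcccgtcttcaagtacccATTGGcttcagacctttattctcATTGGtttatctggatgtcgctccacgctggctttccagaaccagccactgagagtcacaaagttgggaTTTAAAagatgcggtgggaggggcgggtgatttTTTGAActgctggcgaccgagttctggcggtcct
Pttg1: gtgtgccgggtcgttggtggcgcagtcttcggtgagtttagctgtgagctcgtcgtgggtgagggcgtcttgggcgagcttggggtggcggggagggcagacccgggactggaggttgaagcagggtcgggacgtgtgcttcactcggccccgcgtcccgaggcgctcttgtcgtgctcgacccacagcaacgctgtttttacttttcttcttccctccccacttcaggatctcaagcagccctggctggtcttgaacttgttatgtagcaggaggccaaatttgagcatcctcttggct
Cenpa, which did not pass, holds 1 copy of TTTGAA, 1 of TTTAAA and 2 of CCAAT. Pttg1 holds none of the 3, and so do Mad2l1, Mybl2, Ncaph, Nuf2 and Nusap1. Mad2l1, Mybl2, Nuf2 and Nusap1 fell, and Ncaph passed as lower only after RLE (limma-trend adjusted p = 0.00199).

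Cyclins and their kinase fell in all 4 tested cases. With the untested Cdc25c they summed to 15.3 ± 2.85 CPM in the BAFF and 46.4 ± 16.8 CPM in the control libraries (SD, n = 3 each). Ccna2, cyclin A2, which works in S phase and at entry to mitosis, stood at 4.77, 7.18 and 5.82 CPM in the BAFF libraries and 27.7, 17.7 and 12.1 CPM in the controls. All 3 BAFF libraries were below the lowest control, and the gene fell (log2 fold change -1.48 ± 0.31, SE, adjusted p = 0.000291; -1.71 ± 0.15 after RLE, adjusted p = 4.02e-05). Ccnb1, the cyclin B1 that activates CDK1, stood at 1.95, 2.44 and 1.85 CPM in the BAFF libraries and 9.001, 6.699 and 4.97 CPM in the controls. Ccnb1 fell (log2 fold change -1.33 ± 0.31, SE, adjusted p = 0.00117; -1.52 ± 0.16 after RLE, adjusted p = 0.000115). Ccnb2, cyclin B2, stood at 2.38, 2.83 and 2.27 CPM in the BAFF libraries and 9.55, 7.302 and 3.598 CPM in the controls, the narrowest gap of the 3 cyclins. Ccnb2 fell (log2 fold change -1.08 ± 0.31, SE, adjusted p = 0.0136; -1.27 ± 0.18 after RLE, adjusted p = 0.000731). Cdk1, the mitotic kinase itself, fell at log2 -1.32 (adjusted p = 0.00155, and 0.000181 after RLE). Cdc25c, the phosphatase that removes the inhibitory phosphate from CDK1, was not tested because its mean was under 1 CPM. It stood at 0.518, 0.362 and 0.592 CPM in the BAFF libraries and 1.54, 1.26 and 1.06 CPM in the controls, with 5 to 42 estimated reads, and the groups did not overlap. With no filter on low values its log2 fold change was -0.61 ± 0.23 (SE, adjusted p = 0.118). In that fit 34 of the 50 members passed as lower, as did 623 of all 18341 genes. Ccnb1 without BAFF library 3 (adjusted p = 0.0605), Ccnb2 without BAFF library 1, 2 or 3 or control 2 (adjusted p at most 0.189) and Cdk1 without BAFF library 1 or 3 (adjusted p at most 0.135) lost the call on the deposited scale.

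Of 5 mitotic kinase genes 3 fell and 2 did not pass, and all 5 passed as lower after RLE. Kinase transcripts summed to 12.9 ± 1.38 CPM in the BAFF and 32.7 ± 11.1 CPM in the control libraries (SD, n = 3 each). Aurkb, the Aurora kinase of the chromosomal passenger complex, stood at 3.32, 2.65 and 2.17 CPM in the BAFF libraries and 11.6, 10.4 and 6.77 CPM in the controls. Aurkb fell (log2 fold change -1.49 ± 0.31, SE, adjusted p = 0.000206; -1.696 ± 0.17 after RLE, adjusted p = 9.72e-05). Ttk, the kinase MPS1 that starts the spindle checkpoint, stood at 0.415, 0.906 and 0.888 CPM in the BAFF libraries and 4.24, 3.09 and 1.91 CPM in the controls. It fell (log2 fold change -1.204 ± 0.30, SE, adjusted p = 0.00293; -1.34 ± 0.20 after RLE, adjusted p = 0.000907), though its BAFF values rest on as few as 4 reads. The mean of 1 CPM was reached only through the controls (BAFF mean 0.736 CPM), so to be tested Ttk had to be somewhat higher in them. Plk1, Polo-like kinase 1, fell at log2 -1.16 (adjusted p = 0.00549, and 0.00401 after RLE). Aurka, the Aurora kinase of the centrosome, did not pass at log2 -0.82 (adjusted p = 0.105, and 0.00748 after RLE). Bub1, a checkpoint kinase at kinetochores, stood at 4.77, 6.02 and 3.65 CPM in the BAFF libraries and 13.3, 7.02 and 5.93 CPM in the controls. Its lowest control lay below BAFF library 2, and it did not pass (log2 fold change -0.69 ± 0.31, SE, adjusted p = 0.2197), while after RLE the groups separated (-0.905 ± 0.18 after RLE, adjusted p = 0.004802). Ttk without BAFF library 1 (adjusted p = 0.125) and Plk1 without BAFF library 2 or 3 or control 2 (adjusted p at most 0.273) lost the call on the deposited scale.

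Checkpoint and APC/C genes fell in 3 of 5 cases, and after RLE in 4. All 5 summed to 25.3 ± 2.87 CPM in the BAFF and 43.6 ± 12.2 CPM in the control libraries (SD, n = 3 each). Cdc20, the APC/C activator on which the checkpoint acts, stood at 1.45, 2.03 and 1.48 CPM in the BAFF libraries and 6.18, 4.63 and 4.64 CPM in the controls. Cdc20 fell (log2 fold change -1.21 ± 0.31, SE, adjusted p = 0.00347; -1.397 ± 0.19 after RLE, adjusted p = 0.000471). Mad2l1, the MAD2 protein that binds CDC20, stood at 3.01, 5.36 and 3.65 CPM in the BAFF libraries and 13.3, 10.5 and 5.93 CPM in the controls. Mad2l1 fell (log2 fold change -1.09 ± 0.31, SE, adjusted p = 0.0142; -1.2995 ± 0.18 after RLE, adjusted p = 0.000655). Ube2c, the E2 enzyme of the APC/C, fell at log2 -1.0005 (adjusted p = 0.0257, and 0.00294 after RLE). Bub1b, the checkpoint protein BUBR1, stood at 8.19, 9.03 and 8.49 CPM in the BAFF libraries and 19.98, 15.7 and 11.01 CPM in the controls, with no overlap, and did not pass (log2 fold change -0.76 ± 0.32, SE, adjusted p = 0.167; -0.99 ± 0.13 after RLE, adjusted p = 0.000339). Pttg1, securin, which keeps separase inactive until anaphase, stood at 8.29, 10.9 and 8.69 CPM in the BAFF libraries and 9.95, 9.55 and 5.72 CPM in the controls. BAFF and control values overlapped, and no difference was detected (log2 fold change 0.15 ± 0.31, SE, adjusted p = 0.814; -0.07 ± 0.16 after RLE, adjusted p = 0.806). Cdc20 without BAFF library 1 or 3 (adjusted p at most 0.0965) and Mad2l1 and Ube2c without BAFF library 1, 2 or 3 or control 2 (adjusted p at most 0.315 and 0.374) lost the call on the deposited scale.

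Of 7 centromere and kinetochore genes 5 fell, on both scales, and 2 did not pass on either. The whole group summed to 50.5 ± 5.499 CPM in the BAFF and 82.5 ± 24.5 CPM in the control libraries (SD, n = 3 each). Cenpf, a large protein of the outer kinetochore, stood at 8.603, 6.23 and 4.74 CPM in the BAFF libraries and 26.5, 19.9 and 16.3 CPM in the controls. Cenpf fell (log2 fold change -1.55 ± 0.32, SE, adjusted p = 0.000139; -1.78 ± 0.18 after RLE, adjusted p = 8.82e-05). Cenpe, the kinetochore motor that brings chromosomes to the spindle equator, stood at 6.74, 5.51 and 4.54 CPM in the BAFF libraries and 23.7, 19.1 and 11.9 CPM in the controls. Cenpe fell (log2 fold change -1.504 ± 0.31, SE, adjusted p = 0.000214; -1.73 ± 0.16 after RLE, adjusted p = 4.46e-05). Of the NDC80 complex, which binds microtubules, 3 subunits fell: Nuf2 at log2 -1.23 (adjusted p = 0.00324, and 0.000235 after RLE), Ndc80 at -1.03 (adjusted p = 0.02096, and 0.00123 after RLE) and Spc25 at -0.97 (adjusted p = 0.0321, and 0.00895 after RLE). Spc25 stood at 1.87, 1.305 and 1.48 CPM in the BAFF libraries and 6.37, 5.196 and 1.69 CPM in the controls, and its groups overlapped, with control 3 below BAFF library 1. Spc24, the remaining subunit of the complex, did not pass at 0.518, 0.979 and 0.7897 CPM in the BAFF libraries and 3.48, 1.69 and 0.635 CPM in the controls, with 3 to 95 reads and a mean above 1 CPM only through the controls (log2 fold change -0.62 ± 0.30, SE, adjusted p = 0.263; -0.71 ± 0.25 after RLE, adjusted p = 0.0812). Cenpa, the histone H3 variant that marks centromeres, was the member with the highest fold change, at 34.1, 29.00 and 31.5 CPM in the BAFF libraries and 30.1, 23.5 and 19.3 CPM in the controls. Its groups overlapped and it did not pass (log2 fold change 0.38 ± 0.32, SE, adjusted p = 0.569; 0.14 ± 0.12 after RLE, adjusted p = 0.488). Without control library 1 Cenpa was called higher on the deposited scale, at log2 0.54 (adjusted p = 0.0454), in a fit where the median of all tested genes was 0.44. After RLE and without that library it was not called, at log2 0.07 (adjusted p = 0.786). Cenpf without BAFF library 3 (adjusted p = 0.0521), Nuf2 without BAFF library 2 or 3 (adjusted p at most 0.111) and Ndc80 and Spc25 without BAFF library 1, 2 or 3 or control 2 (adjusted p at most 0.261 and 0.355) lost the call on the deposited scale.

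The chromosomal passenger complex corrects faulty attachments and directs cytokinesis, and of its 3 genes here 1 fell, and all 3 after RLE. Together they summed to 14.9 ± 0.922 CPM in the BAFF and 29.4 ± 9.38 CPM in the control libraries (SD, n = 3 each). Birc5, survivin, stood at 2.07, 2.900 and 3.16 CPM in the BAFF libraries and 11.2, 9.27 and 5.08 CPM in the controls. Birc5 fell (log2 fold change -1.31 ± 0.31, SE, adjusted p = 0.00155; -1.51 ± 0.18 after RLE, adjusted p = 0.000233). Cdca8, borealin, stood at 2.18, 2.54 and 2.67 CPM in the BAFF libraries and 6.26, 5.76 and 3.81 CPM in the controls with no overlap and did not pass (log2 fold change -0.84 ± 0.31, SE, adjusted p = 0.0905), but passed as lower after RLE (log2 -1.03 ± 0.17, adjusted p = 0.00176). Incenp, the scaffold that holds Aurora B, stood at 11.3, 8.45 and 9.58 CPM in the BAFF libraries and 20.6, 15.7 and 10.6 CPM in the controls, where control 3 lay below BAFF library 1, and did not pass (log2 fold change -0.59 ± 0.32, SE, adjusted p = 0.343; -0.82 ± 0.15 after RLE, adjusted p = 0.00252). The deposited-scale call of Birc5 without BAFF library 1 (adjusted p = 0.0956) was lost.

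Of 8 kinesin genes 6 fell, and all 8 passed as lower after RLE. Kinesin transcripts summed to 28.2 ± 1.801 CPM in the BAFF and 70.5 ± 29.3 CPM in the control libraries (SD, n = 3 each). Kif11, the motor Eg5 that pushes spindle poles apart, stood at 5.701, 4.82 and 4.94 CPM in the BAFF libraries and 22.9, 18.3 and 9.102 CPM in the controls. Kif11 fell (log2 fold change -1.44 ± 0.31, SE, adjusted p = 0.000447; -1.66 ± 0.17 after RLE, adjusted p = 8.82e-05). Kif4, a chromosome-bound kinesin, stood at 2.49, 2.94 and 1.97 CPM in the BAFF libraries and 10.8, 9.13 and 3.598 CPM in the controls. Kif4 fell (log2 fold change -1.25 ± 0.31, SE, adjusted p = 0.00275; -1.44 ± 0.22 after RLE, adjusted p = 0.000907). Kif23, the motor MKLP1 of the midbody, stood at 6.12, 6.13 and 6.61 CPM in the BAFF libraries and 15.6, 10.1 and 6.77 CPM in the controls, where the lowest control was just above the highest BAFF library, and it did not pass (log2 fold change -0.63 ± 0.31, SE, adjusted p = 0.294; -0.85 ± 0.14 after RLE, adjusted p = 0.00197). Kif2c, Kif20a, Kif22 and Kif20b fell at log2 -1.19 (adjusted p = 0.00385, and 0.000522 after RLE), -1.08 (adjusted p = 0.0141, and 0.00547 after RLE), -0.98 (adjusted p = 0.0289, and 0.00157 after RLE) and -0.95 (adjusted p = 0.04800, and 0.00228 after RLE), and Kif15 did not pass at -0.902 (adjusted p = 0.06302, and 0.001197 after RLE). For Kif20a control 3 lay below BAFF libraries 2 and 3. Kif4 without BAFF library 1 or 3 or control 2 (adjusted p at most 0.119), Kif2c without BAFF library 1 or 2 (adjusted p at most 0.123) and Kif20a, Kif22 and Kif20b without BAFF library 1, 2 or 3 or control 2 (adjusted p at most 0.382, 0.278 and 0.491) lost the call on the deposited scale.

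All 5 spindle genes and all 3 cytokinesis genes fell. The spindle genes summed to 18.6 ± 0.0702 CPM in the BAFF and 58.03 ± 22.8 CPM in the control libraries (SD, n = 3 each). The cytokinesis genes summed to 13.9 ± 0.444 CPM in the BAFF and 37.8 ± 15.6 CPM in the control libraries (SD, n = 3 each). Aspm, which holds microtubules at spindle poles, had the lowest fold change of all members. It stood at 2.38, 2.36 and 3.95 CPM in the BAFF libraries and 14.5, 10.5 and 10.4 CPM in the controls, and every BAFF library was far below every control (log2 fold change -1.73 ± 0.31, SE, adjusted p = 1.05e-05; -1.93 ± 0.20 after RLE, adjusted p = 9.72e-05). Hmmr, a spindle assembly protein, stood at 3.94, 4.06 and 2.47 CPM in the BAFF libraries and 16.3, 9.41 and 6.56 CPM in the controls. Hmmr fell (log2 fold change -1.32 ± 0.31, SE, adjusted p = 0.00147; -1.53 ± 0.18 after RLE, adjusted p = 0.000233). Prc1, which bundles the microtubules of the central spindle, stood at 5.701, 4.64 and 4.94 CPM in the BAFF libraries and 21.3, 15.7 and 7.62 CPM in the controls. Prc1 fell (log2 fold change -1.28 ± 0.31, SE, adjusted p = 0.00245; -1.497 ± 0.18 after RLE, adjusted p = 0.000232). Tpx2, the activator of Aurora A, stood at 3.73, 5.11 and 5.03 CPM in the BAFF libraries and 19.1, 13.3 and 6.35 CPM in the controls, with control 3 near the BAFF libraries. Tpx2 fell (log2 fold change -1.201 ± 0.31, SE, adjusted p = 0.00509; -1.41 ± 0.19 after RLE, adjusted p = 0.000471). Nusap1 fell at log2 -1.27 (adjusted p = 0.002100, and 0.000192 after RLE). Anln, anillin, a scaffold of the contractile ring, stood at 4.56, 4.02 and 3.26 CPM in the BAFF libraries and 19.9, 13.8 and 9.53 CPM in the controls. Anln fell (log2 fold change -1.59 ± 0.31, SE, adjusted p = 6.54e-05; -1.81 ± 0.15 after RLE, adjusted p = 3.59e-05). Ect2, the exchange factor that activates RhoA at the cleavage site, stood at 1.97, 2.86 and 2.37 CPM in the BAFF libraries and 8.89, 7.302 and 4.02 CPM in the controls. Ect2 fell (log2 fold change -1.14 ± 0.31, SE, adjusted p = 0.00801; -1.33 ± 0.18 after RLE, adjusted p = 0.000457). Racgap1, its partner in the central spindle, stood at 7.26, 7.503 and 7.897 CPM in the BAFF libraries and 25.4, 15.2 and 9.53 CPM in the controls, and its call lay at the threshold (log2 fold change -0.95 ± 0.32, SE, adjusted p = 0.0498; -1.17 ± 0.15 after RLE, adjusted p = 0.000346). Hmmr without BAFF library 3 (adjusted p = 0.1300), Prc1 without BAFF library 2 or 3 or control 2 (adjusted p at most 0.0973), Tpx2, Ect2 and Racgap1 without BAFF library 1, 2 or 3 or control 2 (adjusted p at most 0.185, 0.186 and 0.365) and Nusap1 without BAFF library 2 or 3 (adjusted p at most 0.0882) lost the call on the deposited scale.

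Of 7 genes of condensin and chromosome structure 4 fell, and 6 after RLE. These genes summed to 134 ± 5.35 CPM in the BAFF and 294 ± 113 CPM in the control libraries (SD, n = 3 each). Mki67, the Ki-67 protein that coats mitotic chromosomes and is used as a mark of dividing cells, had the most reads of the members, 381 to 4214. It stood at 45.4, 37.99 and 42.8 CPM in the BAFF libraries and 154, 119 and 80.6 CPM in the controls. Mki67 fell (log2 fold change -1.42 ± 0.32, SE, adjusted p = 0.000782; -1.67 ± 0.11 after RLE, adjusted p = 1.22e-05). Top2a, topoisomerase II alpha, which untangles sister chromatids, stood at 22.3, 23.8 and 25.5 CPM in the BAFF libraries and 94.03, 68.9 and 36.2 CPM in the controls. Top2a fell (log2 fold change -1.34 ± 0.32, SE, adjusted p = 0.001697; -1.58 ± 0.14 after RLE, adjusted p = 3.59e-05). The condensin I subunits Ncapd2 and Ncapg fell at log2 -1.23 (adjusted p = 0.00398, and 4.40e-05 after RLE) and -1.21 (adjusted p = 0.00407, and 0.000414 after RLE), and Ncaph did not pass at -0.89 (adjusted p = 0.0679, and 0.00199 after RLE). Smc2 and Smc4, the core that condensin I and II share, did not pass, Smc2 at log2 -0.72 (adjusted p = 0.1999, and 0.0008204 after RLE) and Smc4 at 43.7, 40.2 and 37.4 CPM in the BAFF libraries and 69.4, 47.3 and 26.7 CPM in the controls (log2 fold change -0.14 ± 0.32, SE, adjusted p = 0.8397; -0.38 ± 0.13 after RLE, adjusted p = 0.0658). After RLE Smc2 passed as lower (log2 -0.96 ± 0.14, adjusted p = 0.0008204). The values of Smc4 overlapped between groups on both scales, and its fold change turned positive without control library 1, at log2 0.18 (adjusted p = 0.524). Mki67 without BAFF library 2 (adjusted p = 0.0695), Top2a and Ncapd2 without BAFF library 1, 2 or 3 or control 2 (adjusted p at most 0.0833 and 0.123) and Ncapg without BAFF library 2 or 3 or control 2 (adjusted p at most 0.146) lost the call on the deposited scale.

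Both transcription factors of the set fell. The pair summed to 4.76 ± 0.418 CPM in the BAFF and 13.3 ± 5.67 CPM in the control libraries (SD, n = 3 each). Foxm1, which drives the G2 and M phase genes, stood at 3.52, 3.55 and 4.05 CPM in the BAFF libraries and 13.9, 12.1 and 4.87 CPM in the controls (log2 fold change -1.15 ± 0.31, SE, adjusted p = 0.00792; -1.36 ± 0.20 after RLE, adjusted p = 0.000876). Mybl2, B-MYB, which recruits FOXM1 to those promoters, stood at 1.14, 0.839 and 1.17 CPM in the BAFF libraries and 4.14, 2.705 and 2.12 CPM in the controls (log2 fold change -0.93 ± 0.30, SE, adjusted p = 0.03997; -1.08 ± 0.19 after RLE, adjusted p = 0.002204). Foxm1 and Mybl2 without BAFF library 1, 2 or 3 or control 2 (adjusted p at most 0.202 and 0.387) lost the call on the deposited scale.

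Reads of some members are less certain. The libraries do not mark strand, and in GENCODE M21 exons of 15 of the 50 members overlap exons of another gene. The largest shares are 29.3% of the exon bases of Kif20a, with Cdc23 on the other strand, 22.8% of Ube2c, with Tnnc2, 15.1% of Kif4, with Pdzd11, 13.4% of Ncapg, with Lcorl, 12.7% of Cdc25c, with Gm3550, and 12.5% of Ccna2, with Exosc9. For 44 members every value was a whole number of reads to within 0.02 reads (in proportion for well counted genes). Ccnb1, Mad2l1, Cdc20, Ube2c, Ncapd2 and Mybl2 were the 6 with a value that was not, so their reads were estimated. Of the 36 members called lower, 30 were among the 44.

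Calls on the deposited scale depended on single libraries, while those after RLE did so less. Ccna2, Aurkb, Cenpe, Kif11, Aspm and Anln were the 6 members that passed as lower with all libraries and without any 1 of them. After RLE 44 members did, as did 722 of all tested genes, and Spc25 without BAFF library 2 was the one member call lost. The number of members called lower was 15, 14 and 10 without BAFF library 1, 2 or 3, where 225, 185 and 131 of all tested genes were. It was 17 without control 2 (268 of all tested genes), 39 without control 1 (534) and 46 without control 3 (922). These fits tested 12591 to 12932 genes, and with all libraries 449 of 12824 were lower. Without both deepest libraries, BAFF 2 and control 1, 29 members were lower, and 354 of 12556 tested genes. Without both controls rich in ribosomal RNA only control 1 was left, and the members' median log2 fold change was -1.61, against -0.18 over all tested genes.

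Beyond the 50, part of the other genes of mitosis fell as well. Of 99 tested genes on a list of other kinetochore, spindle and mitotic regulators 27 fell, 0 rose and 72 did not pass, with a median log2 fold change of -0.48, and after RLE 57 passed as lower and 0 as higher (median -0.64). Knstrn, the kinetochore protein kinastrin, stood at 2.18, 2.102 and 1.58 CPM in the BAFF libraries and 9.95, 7.86 and 4.66 CPM in the controls. Knstrn fell (log2 fold change -1.48 ± 0.31, SE, adjusted p = 0.000209; -1.67 ± 0.17 after RLE, adjusted p = 9.74e-05). Pbk, a mitotic kinase, stood at 0.518, 1.23 and 0.7897 CPM in the BAFF libraries and 6.62, 2.81 and 2.54 CPM in the controls. Pbk fell (log2 fold change -1.36 ± 0.30, SE, adjusted p = 0.000576; -1.503 ± 0.22 after RLE, adjusted p = 0.000809), a call lost without BAFF library 1 (adjusted p = 0.0515). Pbk reached the mean of 1 CPM only through the controls (BAFF mean 0.847 CPM), so to be tested it had to be somewhat higher in them. The list also holds genes that cells use outside division, such as Ran and Numa1. Of 49 DNA replication genes, which act in S phase, 10 fell, 0 rose and 39 did not pass (median -0.48), and after RLE 31 passed as lower (median -0.67). Pole, the catalytic subunit of DNA polymerase epsilon, stood at 2.59, 1.96 and 2.17 CPM in the BAFF libraries and 12.6, 7.02 and 5.72 CPM in the controls. Pole fell (log2 fold change -1.48 ± 0.31, SE, adjusted p = 0.0002103; -1.67 ± 0.17 after RLE, adjusted p = 9.72e-05). Tk1, thymidine kinase 1, stood at 3.32, 2.43 and 3.85 CPM in the BAFF libraries and 12.2, 8.12 and 7.83 CPM in the controls. Tk1 fell (log2 fold change -1.296 ± 0.31, SE, adjusted p = 0.00185; -1.502 ± 0.19 after RLE, adjusted p = 0.000292), a call lost without BAFF library 2 (adjusted p = 0.129).

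**Figure D3:**
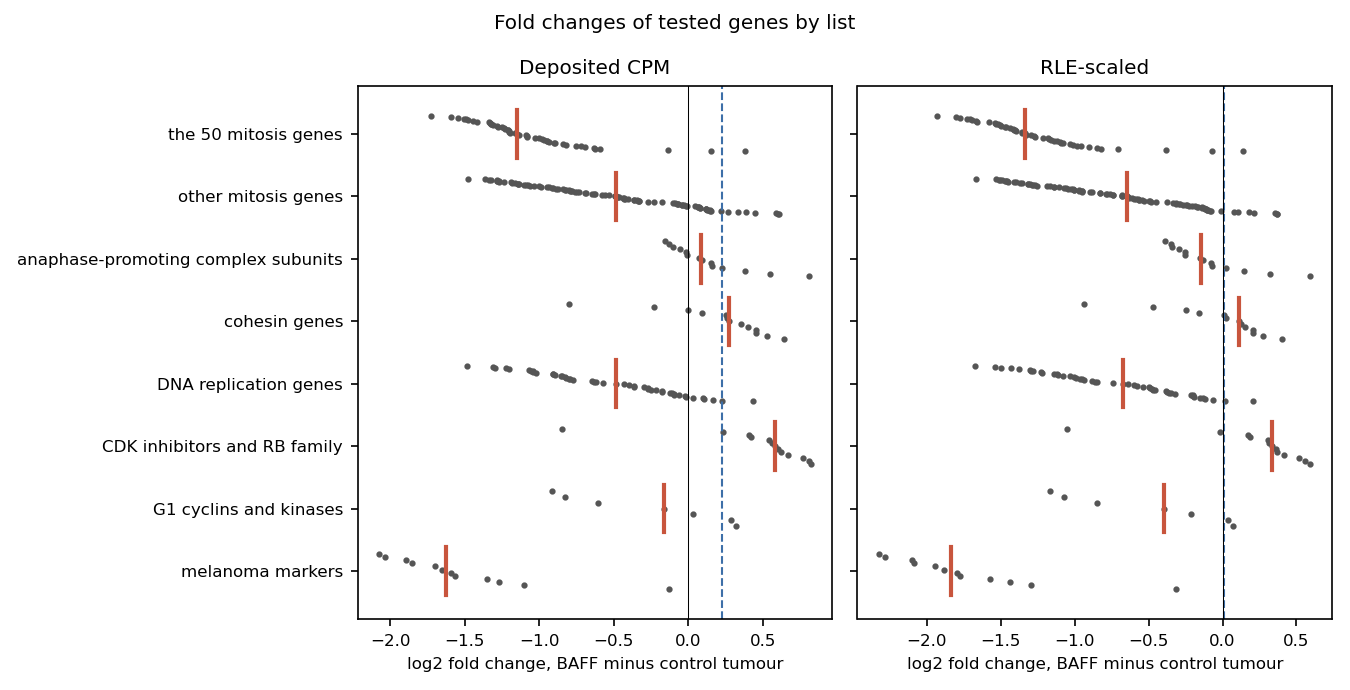
Each dot is the log2 fold change (x axis, BAFF minus control tumour) of 1 tested gene in 8 lists, on the deposited scale (left) and after RLE (right); red bars are list medians and the dashed line is the median of all tested genes. The median of the 50 mitosis genes lies at -1.15 and -1.33, below those of other mitosis and DNA replication genes and above that of melanoma markers.

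Markers of melanoma cells were lower in the same libraries as the mitosis genes. Of 13 markers found 12 were tested, 11 fell and 1, Mlana, did not pass. Their median was -1.62 in log2 (-1.84 after RLE, with 11 lower), and none was at 0 in all libraries. Dct, a pigment enzyme, stood at 59.5, 52.8 and 31.1 CPM in the BAFF libraries and 264, 174 and 167 CPM in the controls. Dct fell (log2 fold change -2.07 ± 0.32, SE, adjusted p = 1.19e-07; -2.32 ± 0.19 after RLE, adjusted p = 3.36e-05), as did Pmel, a melanosome matrix protein, at 32.7, 27.4 and 12.04 CPM in the BAFF libraries and 152, 73.02 and 75.1 CPM in the controls (log2 fold change -2.04 ± 0.32, SE, adjusted p = 1.62e-07; -2.28 ± 0.27 after RLE, adjusted p = 0.0002397). Summed over the 13 markers the level was 185, 169 and 89.6 CPM in the BAFF libraries and 771, 466 and 445 CPM in the controls. Without BAFF library 3, which has the lowest sum, 6 markers passed as lower. The ratio of the summed mitosis genes to the summed melanoma markers was 1.79, 1.87 and 3.45 in BAFF libraries 1, 2 and 3 and 1.25, 1.53 and 1.002 in the controls, higher in each BAFF library than in any control. After RLE the melanoma sum was 173, 148 and 83.9 CPM in BAFF libraries 1, 2 and 3. The mitosis sum there was 309, 278 and 289.6 CPM. BAFF library 3 had the lowest melanoma sum on both scales. Its mitosis sum was the lowest of all libraries on the deposited scale (309.2 CPM) and lay between the other BAFF libraries after RLE. The part of the melanoma markers in the fall of the mitosis genes was not tested. In such bulk libraries fewer dividing cells and less RNA per cell cannot be told apart.

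**Figure D4:**
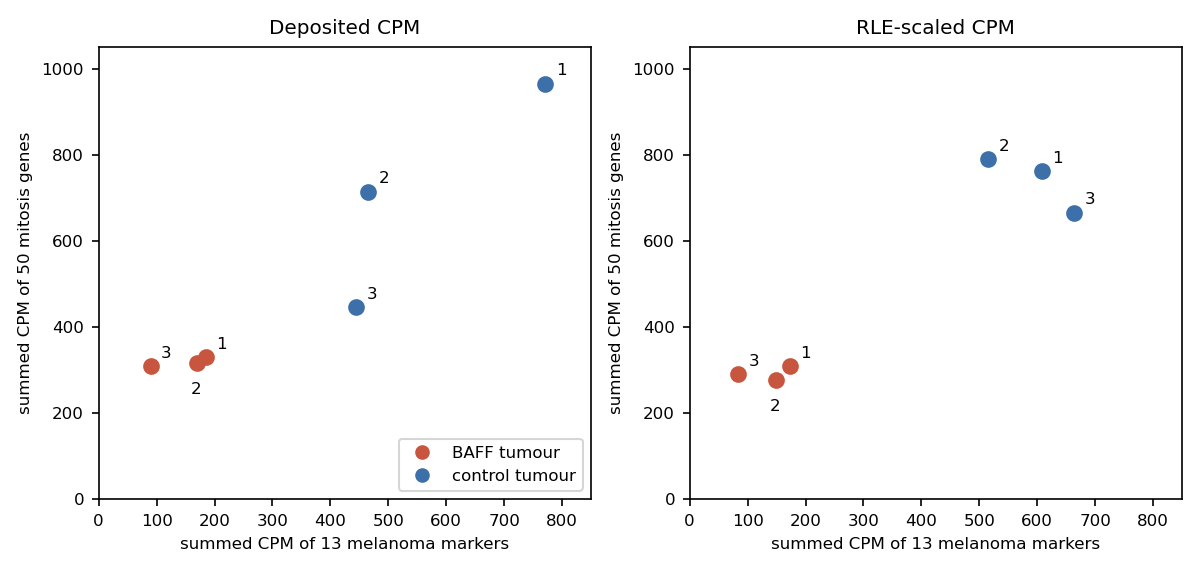
Summed CPM of the 50 mitosis genes (y axis) against summed CPM of 13 melanoma markers (x axis) in each of the 6 libraries, numbered by replicate, on the deposited scale (left) and after RLE (right). The 3 BAFF libraries lie at 309 to 329.9 CPM of mitosis genes on the left and the 3 controls at 446 to 965, with the groups apart on both axes.

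Monocyte and macrophage markers, which the sort should hold, summed to 10568 to 12153 CPM in the BAFF libraries and 5945 to 11055 CPM in the controls, and 0 of 12 passed by limma (3 at an unadjusted p under 0.05). After RLE the sums were 9887 to 10648 CPM in the BAFF libraries and 7060 to 8873 CPM in the controls, with no overlap. Of these markers 3 passed as higher and 1 as lower after RLE. Among other cell types that can divide or be carried along, T and NK cell markers summed to 16.5 to 27.2 CPM in the BAFF and 11.4 to 34.4 CPM in the control libraries, with 0 of 9 passing (0 at an unadjusted p under 0.05). B and plasma cell markers summed to 36.5 to 52.8 CPM and 49.1 to 115 CPM, with 3 of 5 tested genes lower. Neutrophil markers summed to 218 to 327 CPM and 104 to 228 CPM, with 5 of 9 higher (3 after RLE), and dendritic cell markers to 39.9 to 52.1 CPM and 24.2 to 46.3 CPM, with 2 of 8 higher. Fibroblast, endothelial and erythroid markers had 0 passing of 8, 4 and 4 tested (3, 2 and 3 at an unadjusted p under 0.05), and after RLE 1 fibroblast marker was lower and 2 endothelial markers higher. Of fibroblast markers control 1 held 263 CPM, against 34.1 to 61.7 CPM in the other 5 libraries. In the B and plasma cell list Igha, the heavy chain of IgA, stood at 9.64, 0.399 and 8.09 CPM in the BAFF libraries and 25.9, 13.3 and 14.6 CPM in the controls. Igha fell (log2 fold change -1.83 ± 0.31, SE, adjusted p = 3.06e-06; -2.02 ± 0.57 after RLE, adjusted p = 0.0294), a call lost without BAFF library 2 (adjusted p = 0.444) and after RLE without control 1 or 3 (adjusted p at most 0.0809). The part of these cell types in the mitosis genes was not tested.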

How the data were processed

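RNA from 6 libraries, 3 from BAFF and 3 from control tumours, was prepared with the TruSeq RNA v2 kit, per the labels' protocols. The authors deposited CPM for 18341 genes, and library columns were matched to samples by title (1 column name is misspelt; 0 columns stayed unmatched). The submitters' processing notes name Partek, STAR 2.4.1d and Bowtie2 2.2.5 with no roles; the build, annotation and counting: not given in the sources used here. Low CPM values step by whole reads for many genes, with 4.72 to 27.6 reads per CPM, so 3 reads are worth 0.109 to 0.635 CPM. Very small values show that other reads were shared out, so no count model was used. The deposited CPM were taken to log2(CPM + 1), a mean of at least 1 CPM was required, and limma 3.58.1 (R 4.3.3) was fitted with an intensity trend across 12824 genes, with Benjamini-Hochberg adjustment over all of them. Its limma-trend script was tested on reads simulated at the depths of these libraries. The simulated libraries did not differ in scale as the controls here do, so that test does not cover such differences. RLE factors were medians of ratios to the geometric mean library, 0.67 to 1.27. Alternatives were trimmed-mean factors, another pseudocount (0.1), other filters, the replicate number as a block, each library left out and, chosen after seeing the data, pairs of libraries left out.

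In each role group the 2 members with the smallest p, the 1 with the largest and the 1 with the highest mean CPM are given by library, and other members mostly by fold change. In other lists the 2 genes with the smallest p are named, and for most marker lists only counts and sums are given. The members and lists were chosen with earlier results of these data known. Replicate numbers showed no pairing of the samples on the deposited scale: same-numbered libraries had deviations correlated at -0.06, 0.06 and -0.04. Differences in library scale could hide a pairing there.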

Additional observations from a re-analysis of the deposited data

How the results depend on the processing

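The direction of each tested member held in all settings in which it was tested, apart from Pttg1 and Smc4. Cenpa, which was higher on both scales, kept that direction. The number of members called lower was 36, and 45 with RLE or trimmed-mean factors. It was 34 with a pseudocount of 0.1 CPM or no filter, and 21 with a filter at 5 CPM, where fewer members were tested. Of all 12824 tested genes 449 were lower, 1271 with RLE, 1277 with trimmed-mean factors and 429 with that pseudocount. With no filter 623 of 18341 genes were lower, and with the filter at 5 CPM 174 of 9096. Leaving out 1 library gave 10 to 46 members lower and 0 to 1 higher (44 to 47 and 0 after RLE). Their median log2 fold change ran from -1.42 to -0.92 (-1.45 to -1.22 after RLE). Without both controls rich in ribosomal RNA only control 1 was left, and the members' median was -1.61, against -0.18 over all tested genes. Other mitosis genes called lower numbered 57 with RLE or trimmed-mean factors, 6 with the 5 CPM filter and 65 without those controls, and 2 were higher without both deepest libraries. Single libraries left out gave 5 to 45 lower and 0 to 5 higher (38, 42, 46, 46, 47 and 56, with 0 to 1 higher, after RLE). DNA replication genes called lower numbered 31 with either factor and 33 without those controls, and 21 after RLE without those controls or without both deepest libraries, where on the deposited scale 1 was higher. Single libraries left out gave 1 to 24 lower and 0 to 1 higher (25, 26, 26, 26, 27 and 32 after RLE), and 6 to 11 melanoma markers lower. On the deposited scale every higher call among these genes with 1 library left out came without control 1. In that fit 4615 of 12591 tested genes were called higher, and the median log2 fold change over all tested genes was 0.44. Of member promoters 48.8% held 2 or more CCAAT, against 72.1% with any.

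Pttg1 turned negative with RLE (-0.0705) and trimmed-mean factors (-0.0752), without both controls rich in ribosomal RNA (-0.0991) and after RLE without both deepest libraries (-0.231). With 1 library left out it ran from -0.0721 (without control 3) to 0.281. After RLE it was -0.0132, -0.147 and -0.0424 without BAFF 1, 2 and 3 and -0.157 and -0.102 without controls 1 and 3. Smc4 turned positive without control 1 (0.178, in a range from -0.496) and without both deepest libraries (0.181). The causes were not tested.

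With the replicate number as a block 34 members were lower and 0 higher, with 25 other mitosis and 9 DNA replication genes lower. In that fit 438 of 12824 tested genes were lower. With the block and RLE factors 45 members, 50 other mitosis genes (1 higher) and 31 DNA replication genes were lower. There 1159 of all tested genes were lower, and Pttg1 was at -0.0705. The numbers showed no pairing of the samples on the deposited scale, where not every library correlated best with its own number.

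Control 3 is the shallowest library, where 1 read is worth more than in the others. Cdc25c, Ttk and Spc24 rest on as few as 5, 4 and 3 reads in a library, so their values are coarse.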

Other observations

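Other lists of cell cycle genes, of the APC/C, cohesin, G1 and CDK inhibitors, had 0 calls on the deposited scale, and each had calls after RLE. Of 14 subunits of the APC/C, the ubiquitin ligase that ends mitosis and also works outside division, 0 passed in either direction by limma, 1 at an unadjusted p under 0.05 (median log2 fold change 0.08, and -0.14 after RLE with 1 lower). Anapc16, a small subunit, stood at 17.00, 15.01 and 15.8 CPM in the BAFF libraries and 13.02, 11.7 and 4.02 CPM in the controls, with no overlap. It did not pass (log2 fold change 0.81 ± 0.32, SE, adjusted p = 0.1198; 0.59 ± 0.21 after RLE, adjusted p = 0.0809). Cdc26, another subunit, did not pass either (log2 fold change 0.55 ± 0.31, SE, adjusted p = 0.388; 0.32 ± 0.15 after RLE, adjusted p = 0.161). Of 13 cohesin genes 0 passed by limma (2 at an unadjusted p under 0.05), and after RLE 1 was lower and 1 higher. These were Esco2, the acetyltransferase that acts on cohesin in S phase, at 0.622, 1.05 and 1.28 CPM in the BAFF libraries and 3.37, 2.39 and 1.69 CPM in the controls (-0.94 ± 0.20 after RLE, adjusted p = 0.00749), and Esco1, which also acts outside S phase, at 30.6, 33.5 and 33.6 CPM in the BAFF libraries and 31.1, 20.4 and 13.5 CPM in the controls (0.399 ± 0.11 after RLE, adjusted p = 0.0313). Esco2 reached the mean of 1 CPM only through the controls (BAFF mean 0.985 CPM), so to be tested it had to be slightly higher in them. The groups of Esco1 overlapped on the deposited scale, and its call after RLE was lost without any 1 library other than control 1 (adjusted p at most 0.09796).

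G1 cyclins and kinases had 0 of 7 passing (2 at an unadjusted p under 0.05), and 3 lower after RLE. Ccnd1, cyclin D1, stood at 29.02, 47.7 and 43.8 CPM in the BAFF libraries and 92.5, 89.7 and 51.01 CPM in the controls (-1.17 ± 0.17 after RLE, adjusted p = 0.000676), and Cdk2, a kinase of S phase entry, at 25.1, 28.6 and 20.4 CPM in the BAFF libraries and 59.6, 42.97 and 33.4 CPM in the controls (-1.07 ± 0.12 after RLE, adjusted p = 0.000135). CDK inhibitors and the RB family had 0 of 13 passing (5 at an unadjusted p under 0.05), and after RLE 5 passed as higher and 1 as lower. Cdkn2c, the inhibitor p18 of CDK4 and CDK6, was the lower one, at 3.94, 3.37 and 3.06 CPM in the BAFF libraries and 9.37, 6.32 and 5.72 CPM in the controls (-1.05 ± 0.17 after RLE, adjusted p = 0.00119). Gadd45a, a growth arrest gene, was among the higher, at 19.1, 15.01 and 10.96 CPM in the BAFF libraries and 9.99, 8.14 and 5.93 CPM in the controls (0.59 ± 0.18 after RLE, adjusted p = 0.04105). The call of Gadd45a was lost without any 1 library other than BAFF 3 (adjusted p at most 0.167).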
